A study of Mus musculus with 7 samples.

Results

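Adrenal steroid hormones are made from cholesterol, and the 10 genes described here encode proteins that bring cholesterol into cells, store it as esters, free it again and export it. They are Scarb1, Soat1, Lipe, Lipa, Npc1, Npc2, Stard3, Abca1, Abcg1 and Apoe, taken by their symbols from a table of 35976 genes. All 10 were found, each once. The adrenals were pooled, and all came from the inbred strain C57BL/6J, for which the labels give no other genotype and no treatment. The 7 libraries were E18.5, an embryonic stage close to birth, from 40 glands of undetermined sex; P1, postnatal day 1, from 16 glands of males and 22 of females; 2 weeks, from 6 glands of each sex; and 12 weeks, from 4 glands of each sex. Each library was 1 pool and no group had a second one. The p-values below therefore come from models in which the sexes stand in for replicates of an age. The intervals given for single pools cover counting error only, and the spread between pools of a group was not measured.

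Rodent adrenal cortex takes up most of its cholesterol from high-density lipoprotein through the receptor encoded by Scarb1, which lets cholesteryl ester pass into the cell without the whole particle being engulfed. Cholesterol that is not used at once is esterified by the enzyme encoded by Soat1 and held in lipid droplets, from which hormone-sensitive lipase, encoded by Lipe, frees it when steroid output is called for. Lipoproteins that are engulfed whole end in lysosomes, where acid lipase (Lipa) splits the esters and the proteins of Npc1 and Npc2 pass cholesterol out. Surplus cholesterol leaves cells through the transporters of Abca1 and Abcg1, towards lipoproteins and their protein apolipoprotein E (Apoe).

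Total reads in genes ranged from 15184210 to 23551289 per library, and a single member had between 260 and 87018 reads in a library, so counting error is small beside most of the differences below. The label of adrenal gland was checked against markers. All 8 cortex markers (Nr5a1, Star, Cyp11a1, Hsd3b1, Cyp21a1, Cyp11b1, Mc2r and Fdx1) and all 6 chromaffin cell markers had reads in every library. The library labelled P1 female stood apart from its label, since 4 Y-linked genes had a median of 21.02% of their level in P1 male. Some, but not all, of the fitted values of Scarb1, Soat1, Lipe and Apoe that rest on it are also given without it. Hepatocyte markers summed to 284926 to 386330 normalized counts at E18.5 and P1, 14023 to 36581 at 2 weeks and 435.6 to 474.0 at 12 weeks. Skeletal muscle markers summed to 38225 to 139272 at E18.5 and P1 and to 47.5 in each 12-week pool, and erythroid markers to 54370 to 95135 and to 4720 to 11943. The 2-week pools differed, with muscle markers at 138.8 in males and 4846 in females, and erythroid markers at 8099 and 23519. The tissue from which these marker transcripts came was not tested, and fewer cells of a type and less RNA per cell cannot be told apart in these pools.

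Levels between genes were compared per kilobase of annotated exon, as the median over the 7 libraries of normalized counts per kb. Apoe was the most abundant by this measure, with 5581 normalized counts per kb, and Scarb1 followed with 2408. Abca1 had 1464 and Soat1 1356. Lipa had 704.9, Lipe 480.9 and Npc2 345.9 normalized counts per kb. Npc1 had 210.5, Stard3 102.2 and Abcg1 87.2. Between the lowest and the highest library, 6 of the 10 genes differed at least 2-fold and 4 differed less, namely Npc1, Npc2, Stard3 and Abcg1. Among all 16720 genes tested, 44.3% had a range under 2-fold.

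**Figure D1:**
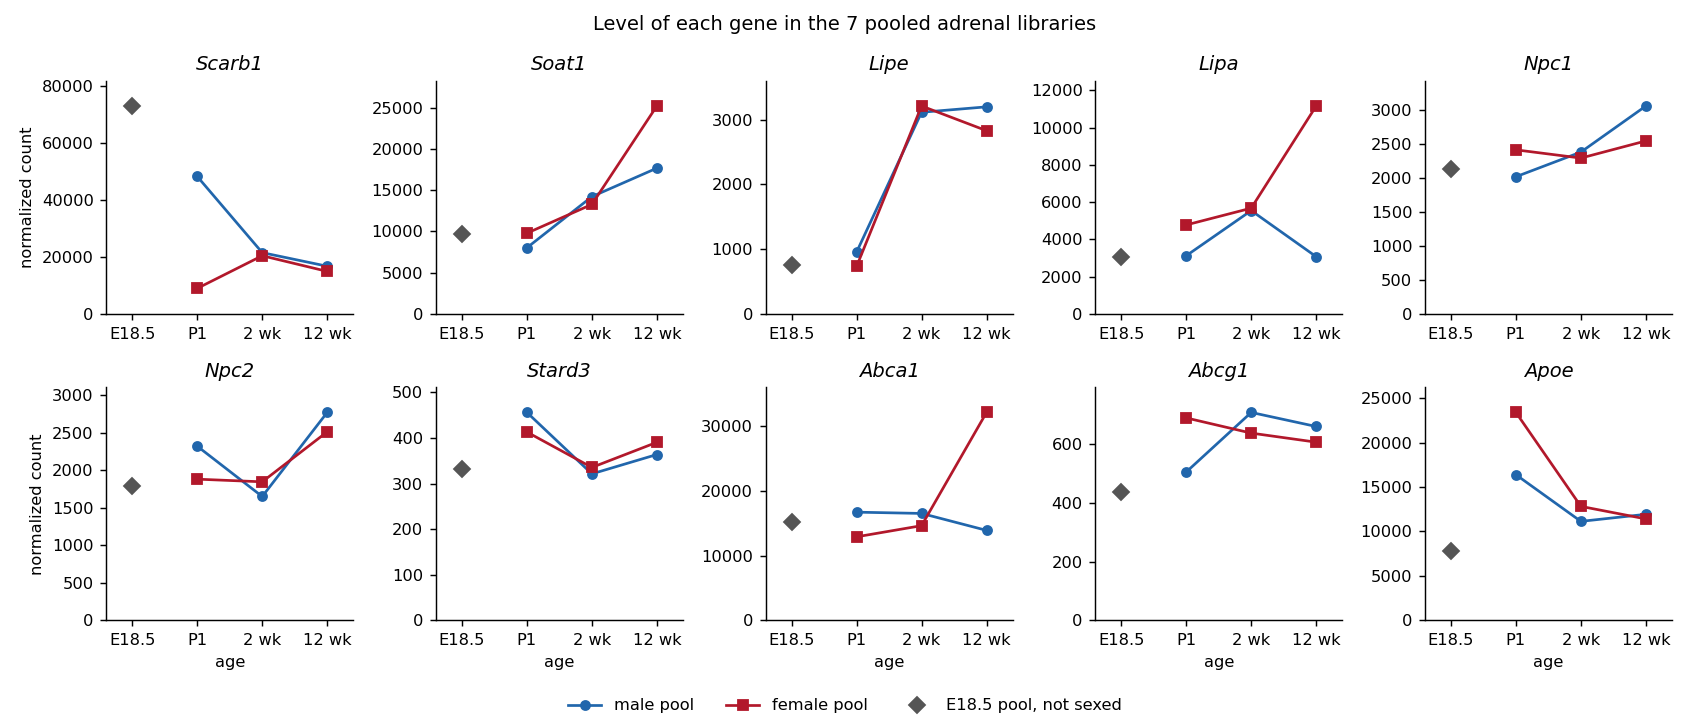
Normalized count (vertical axis, linear from 0, a separate scale for each gene) against age for the 10 genes; circles are male pools, squares female pools and the diamond the unsexed E18.5 pool, with 1 library per point. Scarb1 is highest at E18.5 (73113), Lipe is higher from 2 weeks on, and Lipa and Abca1 separate the 12-week female pool from all others.

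Lipa, Abca1 and Soat1 were higher in the female than in the male pool at 12 weeks by the widest margins of the group, and the sequence upstream of their starts is shown for that reason. Of the 10 members, 7 matched the RefSeq promoter table for GRCm38.p6, the build that corresponds to the mm10 named by the submitters; Scarb1, Npc1 and Abcg1 did not. Each line reads 5′ to 3′ on the strand of the gene, which is the minus strand in all 3, and ends next to the transcription start. Capitals mark matches to the motifs described in the following paragraph. The windows are chr19:34527475-34527724 for Lipa, chr4:53159896-53160145 for Abca1 and chr1:156474332-156474578 for Soat1. Bases inside GENCODE vM21 exons were left out, 3 of them for Soat1.
Lipa: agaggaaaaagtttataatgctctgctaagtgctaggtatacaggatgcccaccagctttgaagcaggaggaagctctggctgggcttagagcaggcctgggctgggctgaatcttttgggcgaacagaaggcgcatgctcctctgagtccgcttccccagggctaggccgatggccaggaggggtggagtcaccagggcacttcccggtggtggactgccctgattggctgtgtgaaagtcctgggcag
Abca1: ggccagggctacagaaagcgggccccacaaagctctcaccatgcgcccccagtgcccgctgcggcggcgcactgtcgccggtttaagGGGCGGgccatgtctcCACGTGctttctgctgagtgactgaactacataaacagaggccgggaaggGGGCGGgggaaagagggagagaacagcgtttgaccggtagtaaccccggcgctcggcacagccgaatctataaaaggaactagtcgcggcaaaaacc
Soat1: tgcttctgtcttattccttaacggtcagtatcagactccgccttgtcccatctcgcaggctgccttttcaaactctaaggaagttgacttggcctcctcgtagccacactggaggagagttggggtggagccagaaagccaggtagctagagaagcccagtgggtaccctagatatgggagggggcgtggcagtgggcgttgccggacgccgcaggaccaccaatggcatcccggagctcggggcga

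Motifs were searched on both strands in the 250 bases upstream of the outermost matched RefSeq start of the 7 members, and in the same window of 32851 promoters. The E-box CACGTG, the core of the element through which lysosomal genes are known to be switched on together, was in 2 of the 7 (Lipe and Abca1), against 6.02% of all promoters, and Lipa did not hold these letters. The element AAGGTCA of the steroidogenic factor SF-1 was in 0 of 7 against 4.08%, and its variant AAGGCCA was in 1 of 7, Lipe, against 5.24%. A full cAMP response element, TGACGTCA, was in 0 of 7 against 1.55%, and a sterol regulatory element in 0 of 7 against 0.0731%. The GC box GGGCGG was in 4 of 7 (Lipe, Npc2, Stard3 and Abca1) against 32.7%. In the Abca1 sequence above the capitals are 2 GC boxes and, between them, the E-box, which lies 147 to 142 bases upstream of the start. The Lipa and Soat1 sequences hold no match to any of these motifs. All 250 bases of the Lipe window, 152 of the Npc2 window and 47 of the Stard3 window lie in annotated exons, and these windows are not shown. The Lipe window ends at chr7:25396237, inside the annotated gene, whose outermost minus-strand start is at 25398710. All matches in Lipe are therefore in annotated exon sequence. A match describes letters only, and no binding was measured.

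Scarb1, the high-density lipoprotein receptor (ENSMUSG00000037936.15, chr5:125277087-125341094, minus strand, GRCm38), was at 73113 normalized counts in the E18.5 pool, at 48325 (male) and 8997 (female) on P1, at 21559 (male) and 20469 (female) by 2 weeks, and at 16779 (male) and 14961 (female) by 12 weeks. The pool before birth was the highest and P1 female the lowest, an 8.13-fold span, wider than in 87.4% of genes tested. After P1 the 2 sexes lay close together, and both 12-week pools were below both 2-week pools. In limma with sex as a block, 12 weeks minus 2 weeks was -0.41 ± 0.55 log2 (SE; adjusted p 0.655), and Scarb1 did not pass. That difference was -1.02 without 2-week male and 0.20 without 2-week female. As a share of all reads in genes Scarb1 went from 0.380% at E18.5, where it was the 16th most abundant gene, to 0.0685% in 12-week female. No 2 neighbours in the order of its levels overlapped in their 95% counting intervals.

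Scarb1 was 1.51-fold lower in P1 male and 8.13-fold lower in P1 female than in the same E18.5 library. In a limma fit of all 7 libraries, in which the single E18.5 pool was assumed to vary like the others, P1 minus E18.5 was -1.81 ± 0.68 on the log2 scale (SE; adjusted p 0.381), and Scarb1 did not pass. The value was -0.66 without P1 female and -2.96 without P1 male (adjusted p 0.665 and 0.387). All 8 cortex markers were also lower in both P1 pools than at E18.5, where they summed to 547869 normalized counts. None of the 10 members passed in this comparison, in which 1 of 16720 genes (0.00598%) did; 2 members, Apoe and Scarb1, had an unadjusted p under 0.05, and edgeR called 0 of the 10 as well. Between P1 and 2 weeks Scarb1 differed by log2 -1.16 in the male pools and 1.19 in the female pools, and the fitted difference was 0.01 ± 0.55 (adjusted p 0.993; -1.14 and 0.112 without P1 female). Between P1 and 12 weeks the fitted difference was -0.40 ± 0.55 (limma adjusted p 0.590). Without P1 female it was -1.55, with P1 male as the only pool of that age. The cortex markers moved with the difference at P1, summing to 382066 normalized counts in the male and 249111 in the female pool, a ratio of 1.53 (7 of 8 markers higher in the male pool), against 5.37 for Scarb1. Kidney markers, 6 of 6 higher in P1 male, summed to 8566 and 2427. Skeletal muscle markers, 0 of 6 higher in P1 male, summed to 76444 and 139272, and chromaffin cell markers, 1 of 6 higher in P1 male, to 46243 and 91131. Their part in the difference was not tested.

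Soat1, the sterol O-acyltransferase that forms cholesteryl esters for storage (ENSMUSG00000026600.12, chr1:156424525-156474331, minus strand), was at 9675 normalized counts in the E18.5 pool, at 8019 (male) and 9786 (female) on P1, at 14213 (male) and 13274 (female) by 2 weeks, and at 17664 (male) and 25195 (female) by 12 weeks. Levels were higher at each later postnatal age, with no overlap between the pools of one age and those of the next. Neighbours in the order were separate beyond counting error except P1 female and E18.5. In limma with sex as a block Soat1 rose by 1.25 ± 0.20 log2 between P1 and 12 weeks (SE; adjusted p 0.00370). The steps of 0.63 ± 0.20 from P1 to 2 weeks (adjusted p 0.0778) and 0.62 ± 0.20 from 2 to 12 weeks (adjusted p 0.0829) did not pass one by one. The first was 0.38 without 2-week male, and stayed at 0.63 without 12-week male or 12-week female. The second was 0.37 without 2-week female, 0.41 without 12-week female and 0.83 without 12-week male. Without P1 male the overall rise had an adjusted p of 0.0640 and without P1 female 0.0579, in fits left with fewer libraries. The cortex markers were also higher in sum at later postnatal ages, reaching 847965 and 1124170 normalized counts at 12 weeks. From P1 to 2 weeks 5 of the 8 were higher in males and 8 of 8 in females. From 2 to 12 weeks 7 of 8 were higher in each sex. Their part in the rise of Soat1 was not tested.

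Lipe, hormone-sensitive lipase (ENSMUSG00000003123.15, chr7:25379527-25398710, minus strand), was at 752.0 normalized counts in the E18.5 pool, at 955.7 (male) and 734.0 (female) on P1, at 3115 (male) and 3212 (female) by 2 weeks, and at 3199 (male) and 2831 (female) by 12 weeks. The libraries formed a low set up to P1 and a high set from 2 weeks on, with a gap of 2.96-fold between them. Within the high set the 2-week pools and the 12-week male pool overlapped in their counting intervals. In limma Lipe rose by 1.92 ± 0.16 log2 between P1 and 2 weeks (SE; adjusted p 0.00208; 3.26-fold in males and 4.38-fold in females), and differed by -0.07 ± 0.16 between 2 and 12 weeks (adjusted p 0.793). Without P1 male the adjusted p of the rise was 0.0746 and without P1 female 0.0520. It was the 1 member of 10 to pass from P1 to 2 weeks, where 16.4% of all genes tested did. Adipocytes also make much hormone-sensitive lipase, and the 8 adipocyte markers were higher over the same step, from 2386 summed normalized counts in P1 male to 41228 in 2-week male and from 2343 in P1 female to 46165 in 2-week female; their part in the rise was not tested. An antisense gene, 4732471J01Rik, overlaps Lipe and had a mean of 93.1 normalized counts, and whether reads were counted by strand is not given in the sources used here.

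The ratio of Soat1 to Lipe, both as normalized counts and so not corrected for length, set a storage transcript beside a release transcript within each library. It was 12.9 before birth, and 8.39 (male) and 13.3 (female) on P1. At 2 weeks it was 4.56 in males and 4.13 in females. At 12 weeks the pools parted, with 5.52 in males and 8.90 in females. The ratio was lower in both 2-week pools than in any other library. The adipocyte markers summed highest in those pools, at 41228 normalized counts in males and 46165 in females. Of the 8, 5 were higher and 3 lower at 12 weeks than at 2 weeks in each sex. Their part in the ratio was not tested.

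Lipa, lysosomal acid lipase (ENSMUSG00000024781.16, chr19:34492318-34527474, minus strand), was at 3078 normalized counts in the E18.5 pool, at 3127 (male) and 4779 (female) on P1, at 5549 (male) and 5680 (female) by 2 weeks, and at 3075 (male) and 11164 (female) by 12 weeks. The 12-week female pool was 1.97-fold above the next highest library and the 12-week male pool was the lowest of all, within counting error of E18.5. Between 2 and 12 weeks Lipa differed by log2 -0.85 in the male pools and 0.97 in the female pools. The fitted age differences were 0.54 ± 0.39 from P1 to 2 weeks and 0.06 ± 0.39 from 2 to 12 weeks, and neither passed (limma adjusted p 0.389 and 0.933). Without 12-week male the second was 0.83, and without 12-week female it was -0.71, so the sign rests on which pool stands for 12 weeks.

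Npc1, a multispanning lysosomal membrane protein that passes cholesterol out of the lysosome (ENSMUSG00000024413.14), had its lowest level in P1 male (2019 normalized counts) and its highest in 12-week male (3061), with a median of 2382. Npc2, the small soluble protein that hands cholesterol to Npc1 (ENSMUSG00000021242.9, chr12:84754562-84773152, minus strand), had from 1650 in 2-week male to 2770 in 12-week male, with a median of 1881. For both genes the 12-week pools were the highest of all libraries, male above female, although for Npc1 the 12-week female and P1 female pools overlapped in their counting intervals. Npc2 was 0.60 ± 0.16 log2 higher at 12 weeks than at 2 weeks (SE; limma adjusted p 0.0554), just outside the threshold, and passed with an adjusted p of 0.0364 when the sex term was left out. The Npc1 to Npc2 ratio in normalized counts stayed between 0.871 (P1 male) and 1.44 (2-week male).

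Stard3, a late endosomal membrane protein with a sterol-binding START domain (ENSMUSG00000018167.10, chr11:98358368-98381112, plus strand), ran from 321.1 normalized counts in 2-week male to 455.8 in P1 male. Its range of 1.42-fold was the narrowest of the 10, and each neighbour in the order overlapped the next in its counting interval. None of its age differences passed, the largest being -0.40 ± 0.18 log2 from P1 to 2 weeks (limma adjusted p 0.170). Lipa, the lipase of the same compartment, ranged over 3.63-fold.

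Abca1, the transporter that passes cholesterol and phospholipid to apolipoprotein A-I (ENSMUSG00000015243.4, chr4:53030787-53159895, minus strand), was at 15174 normalized counts in the E18.5 pool, at 16710 (male) and 12905 (female) on P1, at 16515 (male) and 14626 (female) by 2 weeks, and at 13900 (male) and 32110 (female) by 12 weeks. The other 6 libraries lay within 1.29-fold of each other and the 12-week female pool stood 1.92-fold above the highest of them. The fitted differences were 0.08 ± 0.37 log2 from P1 to 2 weeks and 0.44 ± 0.37 from 2 to 12 weeks (limma adjusted p 0.907 and 0.459). Without 12-week male the second was 1.18, and without 12-week female -0.30, each with 1 pool left at 12 weeks.

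Abcg1, a half-transporter that moves sterol towards high-density lipoprotein (ENSMUSG00000024030.7, chr17:31057675-31117988, plus strand), had from 434.4 normalized counts at E18.5 to 706.3 in 2-week male. In the 12-week female pool, where Abca1 was highest, Abcg1 had 605.3 against 658.5 in the male pool. The ratio of Abca1 to Abcg1 in normalized counts was 18.8 to 34.9 in the other libraries and 53.0 in 12-week female. From P1 to 12 weeks Abcg1 differed by 0.10 ± 0.20 log2 (limma adjusted p 0.713).

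Apoe, the lipoprotein component that macrophages, hepatocytes and steroid-producing cells secrete (ENSMUSG00000002985.16, chr7:19696109-19699188, minus strand), was at 7781 normalized counts in the E18.5 pool, at 16386 (male) and 23392 (female) on P1, at 11138 (male) and 12824 (female) by 2 weeks, and at 11933 (male) and 11413 (female) by 12 weeks. Both P1 pools were above all others and E18.5 was below all others. From E18.5 to P1 it differed by log2 1.07 in males and 1.59 in females, with a fitted difference of 1.33 ± 0.24 log2 (SE; limma adjusted p 0.247; unadjusted p 0.00104), which passed without 12-week male or 12-week female (adjusted p 0.00937 and 0.00920). Macrophage markers were 8 of 8 higher in both P1 pools than at E18.5, where they summed to 7211 normalized counts. It fell by 0.75 ± 0.19 log2 between P1 and 12 weeks (adjusted p 0.0228), and differed by -0.71 ± 0.19 from P1 to 2 weeks (adjusted p 0.0528; -0.49 and 0.278 without P1 female). Without P1 female the difference to 12 weeks was -0.52 (adjusted p 0.169), and leaving out P1 male, either 2-week pool or 12-week female gave adjusted p-values of 0.0567 to 0.115. With all libraries, the adjusted p was 0.0576 without a trend in the variance and 0.0886 when every gene with a mean above 0 was tested. Macrophage markers, 8 genes with reads in every library, were also lower at 2 weeks than at P1, from 9471 to 4029 summed normalized counts in males and from 10812 to 5260 in females, but stood at 10611 and 9766 at 12 weeks. Hepatocyte markers were 7 of 8 higher in P1 male and 3 of 8 higher in P1 female than at E18.5, and 8 of 8 lower at each later age in both sexes. The part of either in the change of Apoe was not tested.

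Across the age comparisons the counts of members were read against all genes. From P1 to 2 weeks 1 of 10 rose and 0 fell, against 16.4% of genes called in either direction. From 2 to 12 weeks 0 of 10 passed in limma, against 15.3%; 2 members, Npc2 and Soat1, had an unadjusted p under 0.05, and edgeR also called 0. Of the genes called from 2 to 12 weeks 903 were higher and 1654 lower at 12 weeks, and 647 and 2514 when libraries were scaled to equal totals. From P1 to 12 weeks 2 rose (Lipe and Soat1) and 1 fell (Apoe), 3 of 10 against 41.2%. The median log2 difference of the 10 was 0.08, 0.13 and 0.34 in the 3 comparisons, beside 0.00, -0.03 and -0.03 over all genes tested. With only 10 members, these shares cannot be told apart from those of all genes, and no difference between them was tested.

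**Figure D2:**
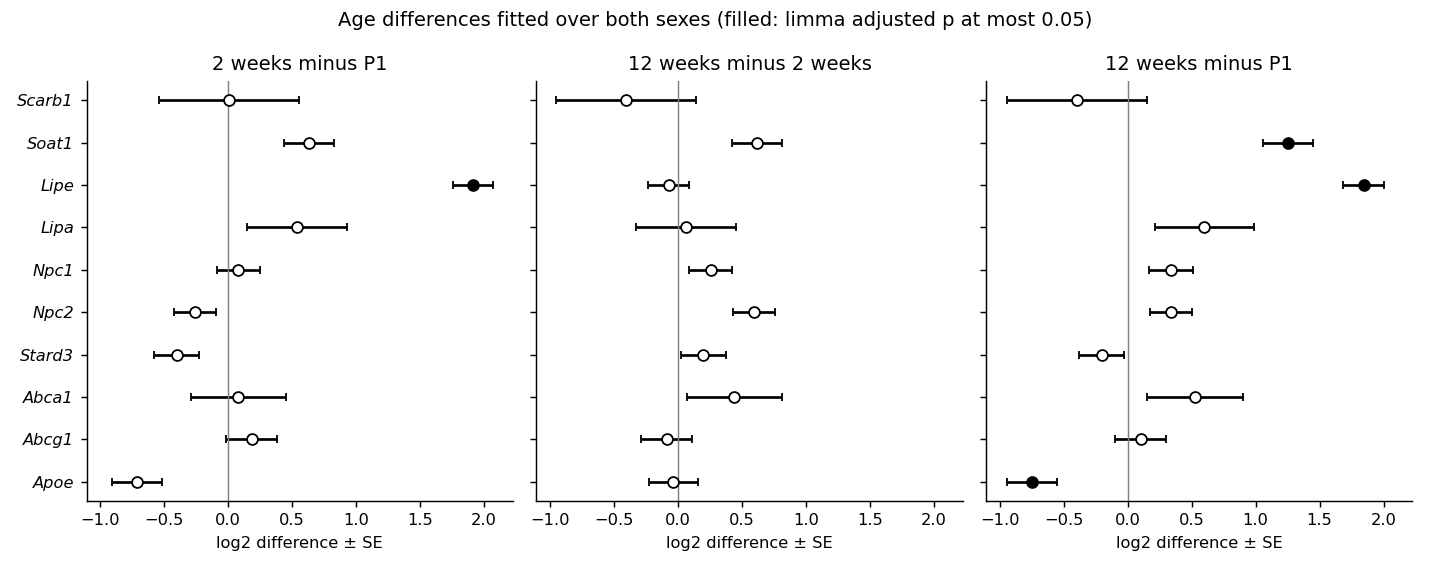
Fitted log2 difference between ages with its SE (horizontal axis) for each gene, from limma on the 6 postnatal libraries with sex as a block; filled points have an adjusted p of at most 0.05. Lipe is filled at 1.92 in the first panel and no gene is filled in the second, while Lipe, Soat1 and Apoe are filled in the third.

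A sex difference common to P1, 2 weeks and 12 weeks was tested with age as a block. None of the 10 members passed in limma, where 1 of 16720 genes (0.00598%) did, and edgeR called 0. Lipa alone had an unadjusted p under 0.05, at -0.84 ± 0.32 log2, male minus female (adjusted p 0.999). The Y-linked genes Ddx3y, Eif2s3y, Kdm5d and Uty, at log2 6.97 to 8.06, did not pass either (limma adjusted p 0.999). In P1 female these genes had a median of 21.02% of their level in P1 male. The part of this in the miss was not tested. A test that misses these genes cannot show that the members do not differ between the sexes. Without 12-week male or 12-week female the Lipa difference was -0.32, and without P1 female the Scarb1 difference went from 0.89 to 0.12. At single ages the 2 pools were compared without a test. At P1, 1 of 10 members, Scarb1, was at least 2-fold apart (5.37-fold higher in the male pool), against 6.78% of genes. At 2 weeks 0 of 10 were, against 4.24%, and the members lay between log2 -0.20 (Apoe) and 0.18 (Abca1). At 12 weeks 2 of 10 were, both higher in the female pool, against 8.83%: Lipa by 3.63-fold and Abca1 by 2.31-fold. Soat1 followed at 1.43-fold, also higher in the female pool.

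At 12 weeks the direction was mixed, with 6 members higher in the male pool and 4 in the female pool. Npc1, the lysosomal exporter, was 1.20-fold higher in males. The markers of other cells that express Lipa and Abca1 were set beside them. Macrophage markers summed to 10611 normalized counts in 12-week male and 9766 in 12-week female, with 6 of 8 higher in the male pool. The other 2, Cd68 and Lyz2, were higher in the female pool. Hepatocyte markers summed to 474.0 and 435.6. Cortex markers summed to 847965 and 1124170, a ratio of 0.754 male over female, with 6 of 8 higher in the female pool. Their median log2 difference, male minus female, was -0.67, beside -1.86 for Lipa and -1.21 for Abca1. Whether sex or another difference between the 2 pools goes with these values cannot be told apart, since each sex had 1 pool.

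**Figure D3:**
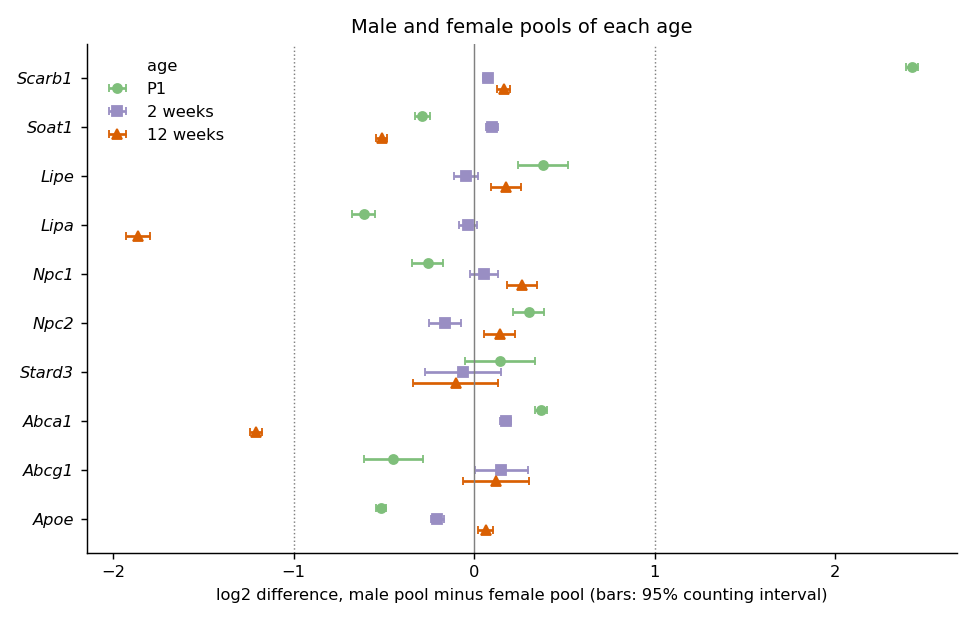
Log2 difference between the male and the female pool (horizontal axis, male minus female) for each gene at P1, 2 weeks and 12 weeks; bars are exact 95% counting intervals and dotted lines mark a 2-fold difference. Scarb1 at P1 (2.43) and Lipa and Abca1 at 12 weeks (-1.86 and -1.21) lie outside the dotted lines.

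**Figure D4:**
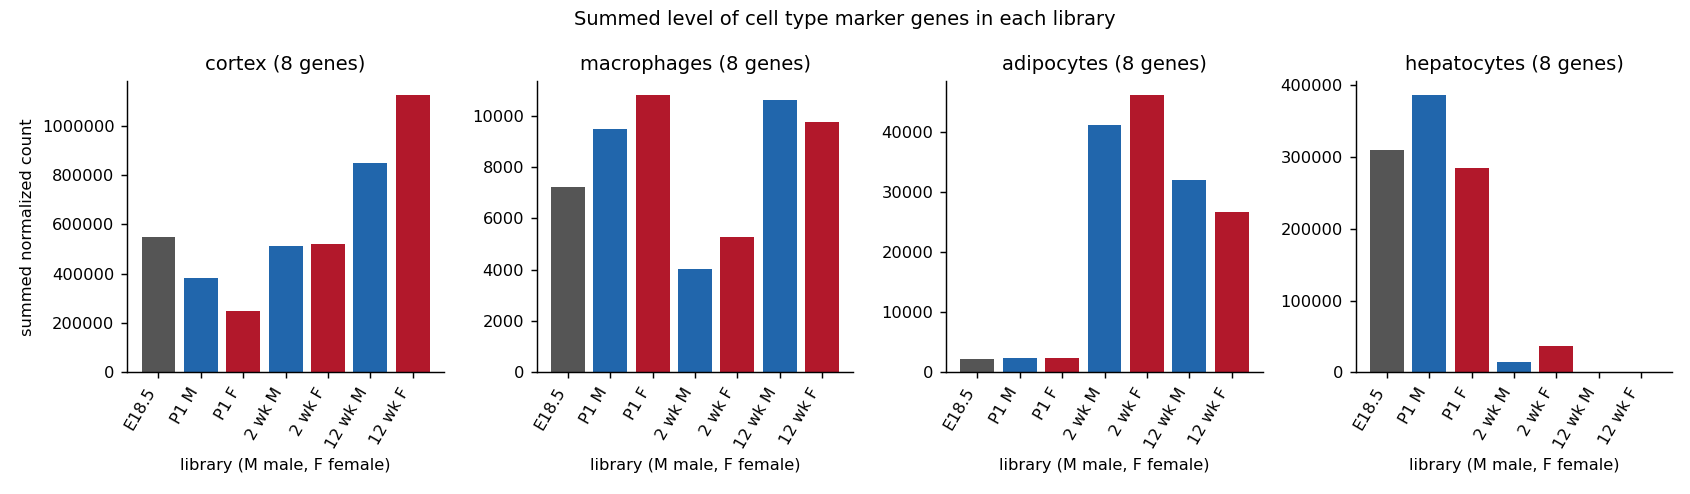
Summed normalized count (vertical axis, linear from 0) of 4 lists of cell type markers in the 7 libraries, 8 genes each. Adipocyte markers step up from 2 weeks on, hepatocyte markers drop after P1, and macrophage markers sum to 10611 and 9766 in the 12-week male and female pools, with 6 of the 8 genes higher in the male pool.

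A list of 51 related genes, all present in the table and tested, placed the members in the wider pathway. From P1 to 2 weeks 8 rose and 7 fell, from 2 to 12 weeks 2 rose and 9 fell, and from P1 to 12 weeks 16 rose and 12 fell, beside 16.4%, 15.3% and 41.2% of all genes called. The list's median log2 differences were 0.14, -0.05 and 0.00, beside 0.00, -0.03 and -0.03 for all genes. Of 12 genes of esters and droplets, 7 rose and 2 fell from P1 to 12 weeks. All 8 adipocyte markers were higher over that step in both sexes, and their part was not tested. Of 16 genes of the lysosome and of cholesterol movement 5 rose and 1 fell. Of 13 genes of efflux and its control 1 rose and 6 fell, and of 10 genes of lipoprotein uptake 3 rose and 3 fell. The efflux genes that fell include Apoa1, Abcg5, Abcg8, Lcat and Apoc1, and all 8 hepatocyte markers were lower over the same step in both sexes; their part was not tested.

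Among uptake genes, Pdzk1, which anchors the Scarb1 protein in liver, fell from 619.4 and 366.5 normalized counts at P1 to 7.12 and 9.70 at 2 weeks (log2 -5.68 ± 0.70, limma adjusted p 0.00529). Over the same step all 8 hepatocyte markers and all 6 kidney markers were lower in both sexes, the kidney markers going from 8566 to 57.8 summed normalized counts in males and from 2427 to 59.1 in females; their part was not tested.

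Of the 12 genes of esters and droplets, 5 rose, 2 fell (Cideb and Soat2) and 5 did not pass from P1 to 2 weeks. Over all genes tested, 16.4% were called. All 8 adipocyte markers were higher over the same step in both sexes. They went from 2386 to 41228 summed normalized counts in males and from 2343 to 46165 in females. Their part in the rises was not tested. Cidec, a droplet fusion protein, had 11.5 and 47.5 normalized counts at P1 and 1615 and 1849 at 2 weeks (log2 6.14 ± 0.62, limma adjusted p 0.00347). Plin1, a droplet coat protein, rose by 2.45 ± 0.23 (adjusted p 0.00295), Pnpla2, adipose triglyceride lipase, by 2.31 ± 0.21 (adjusted p 0.00277), and Mgll, monoglyceride lipase, by 2.03 ± 0.16 (adjusted p 0.00200). Plin1 and Pnpla2 then fell from 2 to 12 weeks, Pnpla2 by 0.90 ± 0.21 log2 (adjusted p 0.0346) and Plin1 from 3497 and 3337 normalized counts to 1998 and 1457 (adjusted p 0.0325). Plin2, the coat protein found on droplets of most cells, rose by 0.72 ± 0.16 from 2 to 12 weeks (adjusted p 0.0292), to 4765 normalized counts in males and 5629 in females. The adipocyte marker sums were lower at 12 than at 2 weeks, going from 41228 to 31932 in males and from 46165 to 26727 in females. Ucp1, the uncoupling protein of brown fat, went from 19373 to 2705 normalized counts in males and from 21706 to 2197 in females over that step, while 5 of the 8 adipocyte markers were higher at 12 weeks in both sexes.

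Star, which carries cholesterol to the inner mitochondrial membrane and also stands in the cortex marker list, rose by 2.43 ± 0.37 log2 from P1 to 12 weeks (limma adjusted p 0.00326), from 97447 and 47002 to 372882 and 357347 normalized counts. Scarb1 was lower in 12-week male than in P1 male and higher in 12-week female than in P1 female. Apoa1, the main protein of high-density lipoprotein and a product of liver and gut, fell from 12957 and 20508 normalized counts at P1 to 39.1 and 13.6 at 12 weeks (log2 -9.40 ± 0.57, adjusted p 0.000168). The sterol exporters of liver and gut, Abcg5 and Abcg8, fell from 2 to 12 weeks, with log2 differences of -4.43 ± 0.59 and -4.15 ± 0.60 (adjusted p 0.00618 and 0.00771), to 0 normalized counts in 12-week male and 1.13 in 12-week female for each. Apoc1, a small apolipoprotein, fell by 2.79 ± 0.32 over that step (adjusted p 0.00390).

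Between the 12-week pools 8.83% of all genes were at least 2-fold apart in either direction. Of the 51 related genes, 4 were at least 2-fold higher in males, namely Lpl (2.07-fold), Plin5 (3.02-fold), Cidec (2.17-fold) and Apoa1 (2.88-fold). Apoa1 was low, at 39.1 normalized counts in males and 13.6 in females. Of the 8 adipocyte markers, 6 were higher in the male and 2 in the female pool, and their part was not tested. Another 4 related genes, Pdzk1, Cideb, Abcg5 and Abcg8, passed the fold limit in the female direction on 3 reads or fewer in both pools. Such reads are too few to give a fold. None of the related genes with more reads was 2-fold higher in the 12-week female pool, as Lipa and Abca1 were. Nceh1, a neutral cholesteryl ester hydrolase singled out after its values were seen, had 5709 normalized counts in 12-week male and 9914 in 12-week female, against 4917 to 5763 in the other libraries.

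The genes whose levels over the 7 libraries were most like each member were found by Pearson's r of log2 values among 12254 genes averaging 100 normalized counts or more, as a description over 7 points that share their libraries. Scarb1 was most like Fdps, which makes farnesyl pyrophosphate in sterol synthesis (r = 0.969), then Rdh11 and Eno1. Fdps had 3864 normalized counts at E18.5 and 933.8 in P1 female, so it too was highest before birth and lowest in that pool. Soat1 was most like G6pc3 (0.997), Lmbr1 and Mfn1, which rise to the 12-week female pool. Lipe was most like Agpat2, an acyltransferase of triglyceride synthesis (0.997), Ormdl3 and Nrg4, a growth factor secreted by brown fat.

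Lipa was most like Plk3 (0.994), with 75.5 normalized counts in 12-week male and 269.3 in 12-week female, then Vps25 and Galt. Abca1 was most like Eea1, an early endosome tether (0.979), Txndc11 and Samd5, all highest in 12-week female. Npc1 was most like Nck1, St18 and A430105I19Rik (0.988, 0.986 and 0.978), and Npc2 like Rps27, Tmem43 and Tor3a (0.973, 0.965 and 0.956). Stard3 was most like Klhl24, Irak3 and Serpina3g (0.986, 0.957 and 0.957), and Abcg1 like Nucb2, Npr2 and Lrp3 (0.987, 0.983 and 0.974). Apoe was most like Rpl36, Tgm2 and Camk2n1 (0.989, 0.978 and 0.968), each highest in P1 female. Among the members themselves r ran from -0.887 for Scarb1 with Abcg1 to 0.790 for Soat1 with Lipe.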

How the data were processed

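RNA from 7 pooled adrenal libraries was analysed. Per the submitters' processing notes CASAVA 1.8.2, HISAT2 2.1.0, HTSeq 0.9.1, DESeq2 2.11.40.6 and the build mm10 were used; their settings, the annotation and the use of strand are not given in the sources used here. The authors deposited 1 table of normalized counts, a signal in which every value (100% within 0.001 reads) was a whole read count times 1 step per library, so reads were recovered. Genes averaging 10 normalized counts or more were tested, 16720 in all, on log2(normalized count + 1), which understates changes of low genes, with limma 3.58.1 (lmFit, eBayes with a trend) in R 4.3.3, two-sided, Benjamini-Hochberg adjusted, threshold 0.05. Age differences had sex, and sex differences age, as a block over 6 postnatal libraries (2 residual degrees of freedom); the E18.5 comparison used all 7. Counting intervals are exact (95%) and cover counting error alone; PCR copies of a molecule, not marked here, are counted as separate reads. edgeR 4.0.16 on recovered reads was an alternative and called 2795 genes from P1 to 2 weeks, 2396 from 2 to 12 weeks and 6754 from P1 to 12 weeks. Other alternatives changed the pseudocount, filter, scaling, trend, block, fold limit or libraries. A fit without 1 postnatal library leaves 1 pool at that age and 1 residual degree of freedom. The p-values of such fits take their spread from the other ages. Scripts were tested on simulated data. Exon lengths and coordinates are from GENCODE vM21 (GRCm38). Apart from the members, the genes named are related genes past the threshold (at most 4 highest and 4 lowest per comparison) or 2-fold apart between sexes at 12 weeks, and the 3 genes most like each member. Further related genes were added for contrast. Members and lists were chosen with earlier results of these data known. Some related genes that the naming rule picks are not reported here.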

Additional observations from a re-analysis of the deposited data

Results flagged for a closer look

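Changes with age that went opposite ways in the male and the female pools, each beyond counting error, were picked out among the 10 genes and 3 age steps. The difference between the sexes was not tested for any of them, since each rests on 1 pool per sex and age. From P1 to 2 weeks Scarb1 changed by -1.16 log2 in males and 1.19 in females, and from P1 to 12 weeks by -1.53 and 0.73; the female values are against the library labelled P1 female that holds Y-linked transcripts. From 2 to 12 weeks Lipa changed by -0.85 in males and 0.97 in females, Abca1 by -0.25 and 1.13, and Apoe by 0.10 and -0.17. From P1 to 12 weeks Abca1 changed by -0.27 in males and 1.32 in females, and Abcg1 by 0.38 and -0.18. The remaining changes of members kept 1 direction in both sexes or lay within counting error in at least 1 of them.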

How the results depend on the processing

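Of 750 alternative fitted values of members 678 kept their direction and their side of the threshold, 44 changed sign, none of them past the threshold in the alternative, 16 gained a call and 12 lost one. The causes were not tested, and fewer libraries leave fewer degrees of freedom. Testing every gene with a mean above 0 left 0 genes called from P1 to 2 weeks (6431 at unadjusted p under 0.05) and from 2 to 12 weeks (6036), with 0 members from P1 to 2 weeks (4), and 0 for sex (783) and E18.5 to P1 (3309). Without a trend in limma's eBayes the counts were 1672, 1661, 0 for sex (638) and 0 for E18.5 to P1 (1973); edgeR gave 0 for sex (667). Upper-quartile scaling called 2 members from P1 to 2 weeks, Apoe being added, and leaving out the sex term 1 from 2 to 12 weeks. Scaling to equal totals moved the median of all genes from 2 to 12 weeks to -0.20, with 647 genes higher and 2514 lower against 903 and 1654. It turned Lipa from 2 to 12 weeks to -0.11, Abcg1 from P1 to 12 weeks to -0.019 and, for sex, Abcg1 to 0.0033 and Stard3 to 0.054; Stard3 for sex was 0.0082 under upper-quartile scaling and 0.0015 in edgeR, and Scarb1 from P1 to 2 weeks -0.15 in edgeR. Genes 2-fold apart between the sexes at P1, 2 weeks and 12 weeks numbered 663, 320 and 739 with a pseudocount of 10, 473, 325 and 814 among genes averaging 50 or more, and 4550, 2331 and 5215 with a mean above 0. A 1.5-fold limit gave 3206, 1684 and 3746 genes and 2 members at P1; a 4-fold limit gave 209, 185 and 276 genes and 0 members at 12 weeks. Leaving out 1 library at a time gave 2 to 4461 genes and 0 to 4 members from P1 to 2 weeks, 421 to 3035 and 0 to 3 from 2 to 12 weeks, 3207 to 6271 and 1 to 5 from P1 to 12 weeks, 0 to 51 genes for sex, and 0 to 444 genes and 0 to 1 members from E18.5 to P1. Some log2 differences changed sign when 1 library was left out. For P1 to 2 weeks these were Abca1 -0.36 to 0.53, Abcg1 -0.10 to 0.48, Lipa -0.063 to 1.14, Npc1 -0.13 to 0.29 and Scarb1 -1.14 to 1.16. For 2 to 12 weeks these were Abca1 -0.30 to 1.18, Abcg1 -0.24 to 0.071, Apoe -0.25 to 0.18, Lipa -0.71 to 0.83, Lipe -0.23 to 0.089 and Scarb1 -1.02 to 0.20. For P1 to 12 weeks these were Abca1 -0.22 to 1.27, Abcg1 -0.19 to 0.39, Lipa -0.17 to 1.37 and Scarb1 -1.55 to 0.76. For the sexes these were Abca1 -0.52 to 0.27, Abcg1 -0.16 to 0.14, Npc1 -0.10 to 0.16, Npc2 -0.010 to 0.22 and Stard3 -0.082 to 0.040. For E18.5 to P1 these were Abca1 -0.49 to 0.40, Lipe -0.0018 to 0.31 and Npc1 -0.16 to 0.26. No paired analysis was possible because each group has 1 library and the labels give no replicate numbers.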
